A study of Homo sapiens with 2 samples.

Results

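The genes described here are the NF-kB transcription factor subunits NFKB1, NFKB2, REL, RELA and RELB, and 5 genes that hold the pathway in check or feed back on it, NFKBIA, NFKBIB, NFKBIE, TNFAIP3 and BIRC3. They were taken by symbol, 10 rows out of the 60880 rows of the expression table, and each symbol matched 1 row. Polyadenylated RNA of SUM-159, an established line of triple-negative human breast cancer, had been sequenced in 2 libraries. In the first, PD-L1L2-SE, a super-enhancer named for the immune checkpoint ligands PD-L1 and PD-L2, was deficient, and the second, sgVector, was the control. The labels name no treatment, stimulus or time point, and the sources used here do not say whether the deficient cells were 1 clone or a pool. With 1 library per group there is no replicate check on any difference below, and no p-value was computed.

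NF-kB proteins are held in the cytoplasm by IkB proteins until an upstream signal, such as tumour necrosis factor or interleukin-1, makes the IKK kinase complex mark the IkB for destruction. The freed dimers then enter the nucleus and bind short kappa B sites. Several of the genes switched on in this way encode inhibitors of the pathway, among them NFKBIA and TNFAIP3, which closes a negative feedback loop. A second, slower branch runs through the kinase NIK and the processing of the NFKB2 precursor, which pairs mainly with RELB.

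The sequences before the transcription starts show where kappa B sites can lie in these genes. RefSeq start windows of 300 bases (250 before and 50 after each start, build GRCh38.p14) were found for 8 of the 10 genes, all but RELB and NFKBIE, and 7 of these held at least 1 match to the 10-base NF-kB consensus on either strand. Of 15276 protein-coding genes with a window, 2444 (16.0%) held a match, and over all 35116 windows the share was 11.3%. Some genes have several windows, and palindromic or overlapping matches count on both strands. A match describes letters in the sequence and shows no binding. The 250 bases before the start are printed below for the 3 genes of the feedback group whose only window holds a match, with every match in capitals and positions counted from the start.
TNFAIP3 (chr6:137867009-137867258, + strand): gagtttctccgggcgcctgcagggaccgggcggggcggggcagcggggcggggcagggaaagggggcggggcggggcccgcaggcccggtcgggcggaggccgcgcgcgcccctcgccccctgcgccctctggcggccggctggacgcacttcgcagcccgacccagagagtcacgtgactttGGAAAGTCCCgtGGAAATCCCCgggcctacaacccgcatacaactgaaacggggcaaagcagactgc
NFKBIA (chr14:35404750-35404999, - strand): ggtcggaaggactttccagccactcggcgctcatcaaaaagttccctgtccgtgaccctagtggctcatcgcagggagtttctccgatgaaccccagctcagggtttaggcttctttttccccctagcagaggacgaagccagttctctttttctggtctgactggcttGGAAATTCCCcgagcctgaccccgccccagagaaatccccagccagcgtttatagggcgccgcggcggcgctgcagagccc
BIRC3 (chr11:102317234-102317483, + strand): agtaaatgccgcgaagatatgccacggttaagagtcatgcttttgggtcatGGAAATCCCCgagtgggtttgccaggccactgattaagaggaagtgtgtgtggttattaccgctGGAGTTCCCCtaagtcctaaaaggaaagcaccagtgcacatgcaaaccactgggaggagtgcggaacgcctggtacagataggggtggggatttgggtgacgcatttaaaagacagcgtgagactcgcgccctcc

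In TNFAIP3 a pair of matches began at -67 and -55 and were separated by 2 bases. NFKBIA had 1 match, at -81, and BIRC3 had matches at -199 and -135. For the other members with a match, the nearest one to the start is printed with its flanks. All matches were found with the same consensus, so their likeness was set by the search. The capitals again mark the matched letters, and where matches on both strands overlap the capitals cover both.
NFKB1 (chr4:102501300-102501329, + strand): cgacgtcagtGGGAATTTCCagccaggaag
REL (chr2:60881517-60881546, + strand): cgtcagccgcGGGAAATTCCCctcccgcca
NFKB2 (chr10:102395674-102395703, + strand): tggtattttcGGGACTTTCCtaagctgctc
NFKBIB (chr19:38899931-38899960, + strand): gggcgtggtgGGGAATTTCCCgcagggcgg

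The same letters, GGGAATTTCC, were matched in NFKB1, NFKBIB, REL and NFKBIA, the latter 2 on the other strand. TNFAIP3 and BIRC3 shared GGGGATTTCC, in both on the other strand. TNFAIP3 and NFKB2 shared GGGACTTTCC, on the other strand in TNFAIP3 and as written in NFKB2. How common these letters are among the matches of other genes was not counted. RELA had 2 windows and no match in either. For NFKB1, NFKB2 and NFKBIB a match was found in some windows and not in others, 1 of 2, 2 of 3 and 1 of 2.

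Among the levels, given per gene length as RPKM (reads scaled by gene length and by the library's total), NFKBIA stood first by far in both libraries. It reached 249.99 RPKM in deficient cells and 211 RPKM in sgVector cells, which was 7.56 and 6.13 times the level of RELA. REL, the subunit best known from lymphoid cells, stood last at 0.482 and 0.309 RPKM. Between these ends the order differed between the libraries. In sgVector cells NFKB2, BIRC3, RELA and TNFAIP3 followed NFKBIA at 46.3, 43.8, 34.4 and 33.7 RPKM. The exact 95% Poisson intervals of NFKB2 and BIRC3 overlapped there at their edges, as did those of NFKB1 and NFKBIE, and those of RELA and TNFAIP3 overlapped more widely. In deficient cells TNFAIP3 stood second at 72.5 RPKM, ahead of BIRC3 at 61.3 and NFKB2 at 35.8 RPKM, and the intervals of neighbours in this order did not overlap. RELB, NFKBIE, NFKB1 and NFKBIB lay lower in both libraries, NFKBIB at 7.20 and 9.03 RPKM.

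**Figure D1:**
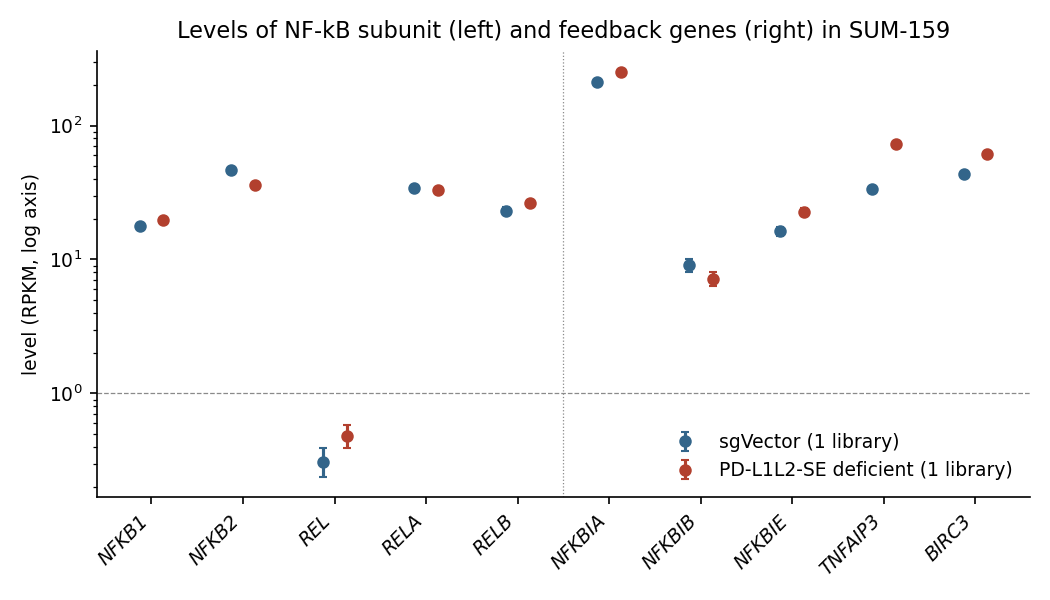
Level of each gene in RPKM (log axis) in sgVector cells (blue) and PD-L1L2-SE deficient cells (red), with exact 95% Poisson intervals for counting error, which are mostly smaller than the points. The dashed line is the minimum mean of 1 RPKM, which REL alone does not reach. On the log axis, which shows ratios, TNFAIP3 has the widest gap between the libraries, 72.5 against 33.7 RPKM.

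A gene entered the counts below if its mean over both libraries was at least 1 RPKM, which 9 of the 10 members and 13552 genes in all passed. It was called higher or lower if the deficient over sgVector log2 ratio, taken on RPKM + 0.1, was at least 1 or at most -1, a 2-fold change. By this rule 1 of the 9 members, TNFAIP3, was higher and 0 were lower. The background was 3.03% of all genes higher and 4.69% lower, and among the 10576 protein-coding genes 2.1% and 2.07%. One gene of 9 is too few to set against these shares. The median log2 ratio over the 9 members was 0.20, against -0.05 over all genes and -0.03 over protein-coding genes. Folds below are ratios of read shares without the added 0.1, with 95% Clopper-Pearson intervals that cover counting error only.

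The subunit genes differed little between the libraries, with log2 ratios from -0.37 to 0.20 over the 4 that passed the minimum and a median of 0.04. RELA encodes the main activating subunit of the fast branch. It had 2960 reads in deficient cells and 3045 in sgVector cells, or 33.1 against 34.4 RPKM. The interval of its ratio, 0.914 to 1.01, held equal shares. The sign of the small RELA difference turned with the scaling, from a log2 ratio of -0.06 to 0.02 with trimmed mean of M values and to 0.09 with a correction for GC content and length. The opposite-strand gene RELA-DT overlaps it with 43 against 40 reads. RELA (ENSG00000173039) lies on chromosome 11 from 65421067 to 65430565 (hg19, - strand).

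NFKB1, whose product is trimmed to the usual partner of RELA, had 2013 against 1811 reads, 19.6 against 17.9 RPKM. The deficient library was thus 1.10-fold higher (1.03 to 1.17). NFKB1 (ENSG00000109320) lies on chromosome 4 from 103422486 to 103538459 (+ strand). RELB, the activating subunit of the slower branch, had 1320 against 1139 reads, 26.5 against 23.2 RPKM, and was 1.15-fold higher (1.06 to 1.24). With the GC and length correction the RELB log2 ratio went from 0.20 to 0.49. RELB (ENSG00000104856) lies on chromosome 19 from 45504688 to 45541456 (+ strand).

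NFKB2 was the subunit gene that stood lower. It encodes the precursor that acts as an inhibitor until its end is removed. NFKB2 had 2627 reads in deficient cells and 3368 in sgVector cells, or 35.8 against 46.3 RPKM, and was 1.30-fold lower (1.23 to 1.36). Its log2 ratio of -0.37 became -0.16 with the GC and length correction. NFKB2 (ENSG00000077150) lies on chromosome 10 from 104153867 to 104162286 (+ strand). NFKB2 and RELB, which encode partners, thus stood on opposite sides of equal shares, and the level of NFKB2 per NFKB1 was 1.82 in deficient cells and 2.595 in sgVector cells.

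REL had 104 reads in deficient cells and 66 in sgVector cells. Its ratio of 1.56 had a wide interval (1.13 to 2.16), and the gene lay under the minimum mean, so it entered no count. With a pseudocount of 1 RPKM in place of 0.1 its log2 ratio shrank from 0.51 to 0.18. REL (ENSG00000162924) lies on chromosome 2 from 61108656 to 61158745 (+ strand).

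Of the summed RPKM of the 5 subunit genes, NFKB2 made up 31.0% in deficient and 38.0% in sgVector cells. RELA took 28.6% and 28.2%, RELB 23.0% and 19.0%, NFKB1 17.0% and 14.6%, and REL 0.417% and 0.253%. The order of the subunits, NFKB2, RELA, RELB, NFKB1, REL, was therefore the same in both libraries, and their sum was 116 against 122 RPKM. RELA kept nearly the same share, while the NFKB2 share was the one that was smaller in deficient cells.

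The inhibitor and feedback genes differed more. Of these 5 genes 4 stood higher in deficient cells and 1 lower, with a median log2 ratio of 0.47. Over all genes past the minimum 6034 of 13552 had a log2 ratio above 0, and 5 genes are too few to set against that share. TNFAIP3 encodes a ubiquitin-editing enzyme that shuts off signalling from the tumour necrosis factor and Toll-like receptors. It had 5995 reads in deficient cells and 2759 in sgVector cells, or 72.5 against 33.7 RPKM. That made TNFAIP3 2.15-fold higher (2.05 to 2.25), the only member whose whole interval lay past 2-fold. Its log2 ratio of 1.10 ranked 332 from the top among 13552 genes, and under the 8 alternatives of pseudocount, scaling and base composition it stayed between 1.08 and 1.18. TNFAIP3 (ENSG00000118503) lies on chromosome 6 from 138188325 to 138204449 (hg19, + strand). The opposite-strand gene WAKMAR2 overlaps it and had 33 against 18 reads, few beside those of TNFAIP3.

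BIRC3 encodes an anti-apoptotic ubiquitin ligase of the tumour necrosis factor receptor complex that also keeps NIK low. It had 7546 against 5333 reads, 61.3 against 43.8 RPKM, and was 1.40-fold higher (1.35 to 1.45). BIRC3 (ENSG00000023445) lies on chromosome 11 from 102188181 to 102210134 (+ strand). Its transcript has the lowest GC content of the 10 genes, 34.8%, and the GC and length correction brought its log2 ratio from 0.48 to 0.30.

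The 3 classical IkB genes split. NFKBIA, the fast-resynthesised IkB alpha, had 9718 reads in deficient cells and 8112 in sgVector cells and was 1.19-fold higher (1.15 to 1.22). NFKBIA (ENSG00000100906) lies on chromosome 14 from 35870717 to 35873955 (- strand). NFKBIE, which encodes IkB epsilon, had 955 against 681 reads, 22.6 against 16.3 RPKM, and was 1.39-fold higher (1.26 to 1.53). NFKBIE (ENSG00000146232) lies on chromosome 6 from 44225903 to 44233525 (- strand). Both ratios grew with the GC and length correction, from 0.25 to 0.43 and from 0.47 to 0.73 on the log2 scale.

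NFKBIB, which encodes IkB beta, stood on the other side. It had 274 reads in deficient cells and 340 in sgVector cells and was 1.25-fold lower (1.07 to 1.48). The log2 ratio of NFKBIB moved from -0.32 to -0.06 with the GC and length correction. NFKBIB (ENSG00000104825) lies on chromosome 19 from 39390340 to 39399533 (+ strand). The gene SIRT2 overlaps it on the opposite strand with 920 against 773 reads, and since the sources used here do not state whether counting used strand, reads in the overlap are uncertain.

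**Figure D2:**
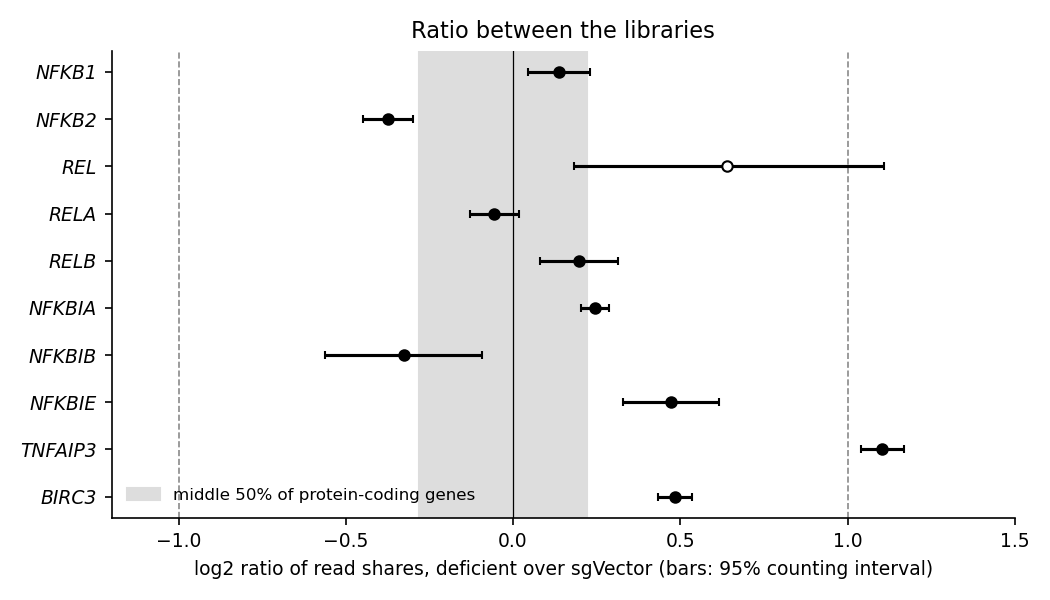
Log2 ratio of read shares, deficient over sgVector, for each gene with its 95% counting interval. The grey band holds the middle 50% of protein-coding genes, the dashed lines mark 2-fold, the open point (REL) lies under the minimum mean, and TNFAIP3 is the only gene with its interval past 2-fold.

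Counting intervals that leave out equal shares were common in all genes of this depth. Among the 8346 protein-coding genes that passed the minimum mean and had at least 500 reads over both libraries, 32.9% had an interval above and 37.1% an interval below equal shares. Of the 9 members, all of which reached that depth, 6 lay above, 2 below and 1, RELA, across it. Such an interval says that 2 libraries differ by more than counting error, not that the conditions do.

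The inhibitors were more abundant relative to the subunits in deficient cells. The summed level of NFKBIA, NFKBIB and NFKBIE was 280 RPKM in deficient and 236 RPKM in sgVector cells, or 2.42 and 1.94 per unit of summed subunit RPKM, a ratio of 1.25 between the libraries. NFKBIA made up 89.4% and 89.3% of that IkB sum, so the sum mostly follows this gene. TNFAIP3 stood at 2.19 per unit of RELA RPKM in deficient cells and 0.980 in sgVector cells, and BIRC3 at 1.85 and 1.27. NFKBIB went the other way, at 0.218 per unit of RELA RPKM in deficient cells and 0.263 in sgVector cells. Bulk RNA cannot tell a change in the number of cells that express a gene from a change in RNA per cell, and these are levels of RNA, not of protein or of its location.

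The genes around each member show which of the ratios were shared along the chromosome. Protein-coding genes past the minimum mean within 1 Mb of the member were used. Around TNFAIP3 there were 7 such genes with a median log2 ratio of 0.13, and 0 of them reached the ratio of TNFAIP3. Within 3 Mb 1 of 17 genes stood higher. The highest within 1 Mb, IFNGR1, which encodes a chain of the interferon gamma receptor, stood at 0.53, and the lowest, NHSL1, at -0.25. NFKBIE was likewise above all 20 of its neighbours within 1 Mb, whose median was -0.15, and within 3 Mb 1 of 55 genes stood higher. REL, under the minimum level, stood at 0.51 beside a median of 0.12 over 9 neighbours and hardly above the highest, USP34 at 0.50. The ratio of REL was smaller with a pseudocount of 1 RPKM (0.18) or the GC and length correction (0.28). USP34 was not compared under these settings. NFKBIA and RELB were above 12 of 14 and 39 of 42 neighbours, with medians of -0.15 and -0.23.

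BIRC3 lay among its neighbours. The 7 genes around it had a median of 0.41, 6 of the 7 were above 0, and its related ligase gene BIRC2 stood at 0.35. Among all protein-coding genes past the minimum 4907 of 10576 were above 0. With a window of 3 Mb the median was 0.49, slightly above the 0.48 of BIRC3 itself. Whether BIRC3 differed beyond this stretch of chromosome 11 was not tested. NFKB1 and RELA also lay close to the medians of their neighbours, 0.17 over 7 genes and -0.09 over 59. NFKB2 and NFKBIB, the 2 lower members, lay below medians of -0.19 over 29 and -0.11 over 28 genes, but 8 and 5 neighbours were as low or lower.

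**Figure D3:**
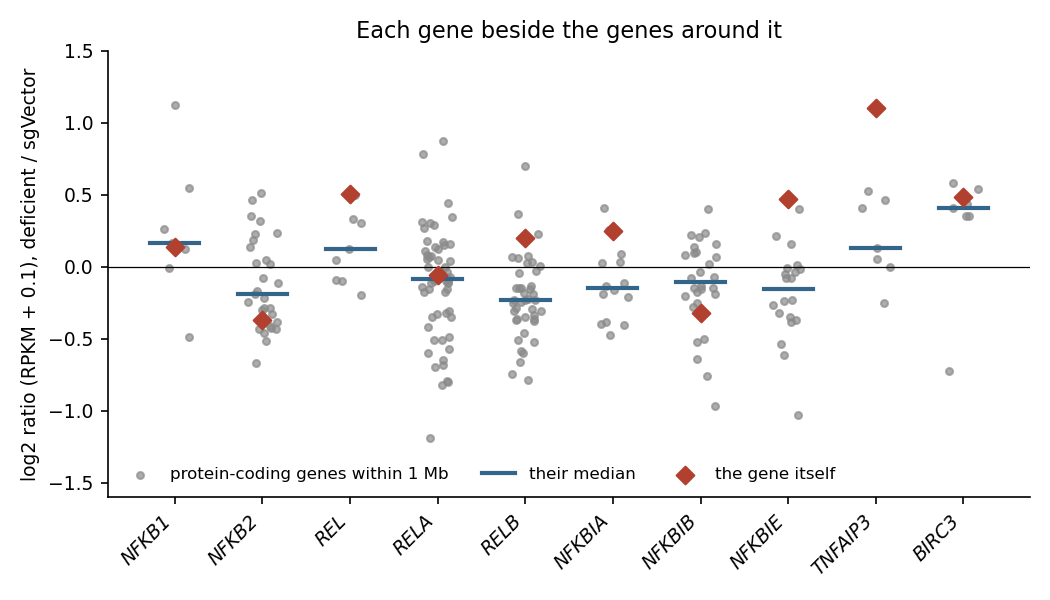
Log2 ratio of each gene (red diamond) beside those of the protein-coding genes within 1 Mb (grey points) and their median (blue line). TNFAIP3 stands 0.97 above the median of its neighbours, NFKBIE 0.62 above, and BIRC3 0.08 above.

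Base composition moved with the ratios as well. Protein-coding genes split into 5 classes of transcript GC content had median log2 ratios from 0.14 in the lowest class to -0.20 in the highest. BIRC3 and REL fall in the lowest class, NFKB1 and TNFAIP3 in the middle one, with a median of -0.04, and NFKB2, RELB, NFKBIB and NFKBIE in the highest. RELB and NFKBIE stood above the median of their class, and NFKB2 and NFKBIB below it. The part of base composition in these ratios was not tested beyond the correction given above.

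The rest of the pathway was described with 7 lists of other genes. The background for each count past 2-fold is the share over all genes, 3.03% higher and 4.69% lower. In lists this short a count of 0 or 1 says little beside it. Among IkB-like proteins and IkB partners 0 of 7 were 2-fold higher and 1 was lower, with a median of -0.20. The lower gene was NFKBID, a nuclear IkB, with 55 reads against 181, 3.33-fold lower (2.45 to 4.58), and at a mean of 2.27 RPKM it drops out with a minimum of 5 RPKM. BCL3, a nuclear IkB that works with dimers of the smaller subunits, had 1747 against 2187 reads and a log2 ratio of -0.34, and NKIRAS1 stood at -0.26. NFKBIZ, an inducible nuclear IkB, had 1137 against 805 reads and a log2 ratio of 0.48, with NKIRAS2 at 0.15 and NFKBIL1 at 0.09. The nuclear IkB genes thus did not share a direction.

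Among kinases and their partner subunits from receptor complexes to IKK, 0 of 16 genes were past 2-fold in either direction, with 11 above 0 and a median of 0.23. Over all genes past the minimum 6034 of 13552 were above 0. MAP3K8, a kinase that the NFKB1 precursor binds, was 1.73-fold higher with 533 against 305 reads. IKBKE, an inducible IKK-related kinase, stood at 0.62 and RIPK2, the kinase downstream of NOD receptors, at 0.53. IKBKB, the catalytic subunit of IKK for the fast branch, was 1.43-fold lower (1.35 to 1.52) with 1957 against 2775 reads, and TAB1 and TBK1 stood at -0.30 and -0.28. The other IKK genes CHUK and IKBKG stood at -0.08 and 0.16, and MAP3K14, which encodes NIK, at 0.48 from 350 against 245 reads. IKBKG has a near-identical pseudogene, so its reads are uncertain.

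Adaptors and ubiquitin ligases held 0 of 18 genes past 2-fold, with a median of -0.08. RBCK1, a part of the ligase that makes linear ubiquitin chains, was 1.84-fold lower (1.72 to 1.97) with 1352 against 2460 reads. TRAF1 and TRAF2 stood at -0.51 and -0.39, and TRAF6, SQSTM1 and MYD88 at 0.42, 0.39 and 0.38. SQSTM1 overlaps MGAT4B on the opposite strand. A list drawn up as other negative regulators held 0 of 15 past 2-fold and a median of 0.13, and with the GC and length correction ZC3H12A passed at 1.13. ZC3H12A, an RNase that destroys cytokine transcripts, had 6699 against 3598 reads and was 1.84-fold higher (1.77 to 1.92). SPPL2A and FBXW11 stood at 0.77 and 0.72, but FBXW11, like BTRC at 0.32, belongs to the ligase that marks phosphorylated IkB for destruction and so promotes signalling. Without FBXW11 and BTRC the median of the remaining 13 genes was 0.09. TRAFD1, TNIP2 and CYLD stood at -0.58, -0.15 and -0.04.

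Of the receptor genes 13 of 16 passed the minimum, 1 was 2-fold higher and 0 lower. TLR4, the receptor for bacterial lipopolysaccharide, had 524 against 201 reads and was 2.58-fold higher (2.19 to 3.05), a call that ended with a pseudocount of 1 RPKM and with a minimum of 5 RPKM. IL18R1 and CD40 stood at 0.95 and 0.66, and IL18R1 passed 2-fold with TPM, with trimmed mean of M values and with centring. TNFRSF12A, TNFRSF11A and TNFRSF1B stood at -0.88, -0.50 and -0.31. TNFRSF1A, the main receptor for tumour necrosis factor, had 5728 against 5179 reads and a log2 ratio of 0.13, and IL1R1 stood at 0.59.

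Ligand genes were scarce. Only 4 of 15 passed the minimum, and TNF itself had 9 reads in deficient cells and 17 in sgVector cells. LTA had 5 against 9 reads and LTB 9 against 11. IL1A and IL1B, which encode both forms of interleukin-1, stood at 0.33 and -0.73, IL1B with 353 against 584 reads and 1.67-fold lower (1.46 to 1.91). IL18 stood at 0.45. TNFSF12, the ligand of the receptor encoded by TNFRSF12A, was 3.21-fold higher (2.20 to 4.77) from 120 against 37 reads, the 1 ligand past 2-fold. Its mean of 2.56 RPKM drops it from the count with a minimum of 5 RPKM, and with no minimum 3 ligand genes were higher and 1 lower.

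Other genes known as NF-kB targets did not share a direction. Of 30 listed genes 26 passed the minimum, of which 5 were 2-fold higher and 5 lower, with a median of 0.23. Over all genes 3.03% were higher and 4.69% lower. The lower count went to 3 with the GC and length correction, with a pseudocount of 1 RPKM and with whole intervals past 2-fold, and the higher count to 3 with whole intervals and with a minimum of 5 RPKM. SOD2 was left out because its symbol matched 2 rows. The 3 highest were CCL2 at 3.34, CXCL1 at 1.74 and CXCL10 at 1.48, all chemokine genes. The chemokine genes of the list did not all stand higher. CCL5 stood at 1.30 from 10289 against 4122 reads, but CXCL8 at -0.70 from 7474 against 11988 reads. The 3 lowest of the list were CSF3 at -3.87, CSF2 at -2.23 and PLAU at -1.53, which encode growth factors of myeloid cells and a plasminogen activator. CCL2 rests on 122 against 9 reads, CXCL1 on 49 against 13 and CSF2 on 30 against 144. The spread of the targets, from -3.87 to 3.34, was wider than that of the members, from -0.37 to 1.10. A range tends to widen with the number of genes, here 26 against 9. Over all 13552 genes past the minimum it ran from -6.12 to 5.58. The list was drawn up with earlier results of these data known, so it is not independent evidence about the members.

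**Figure D4:**
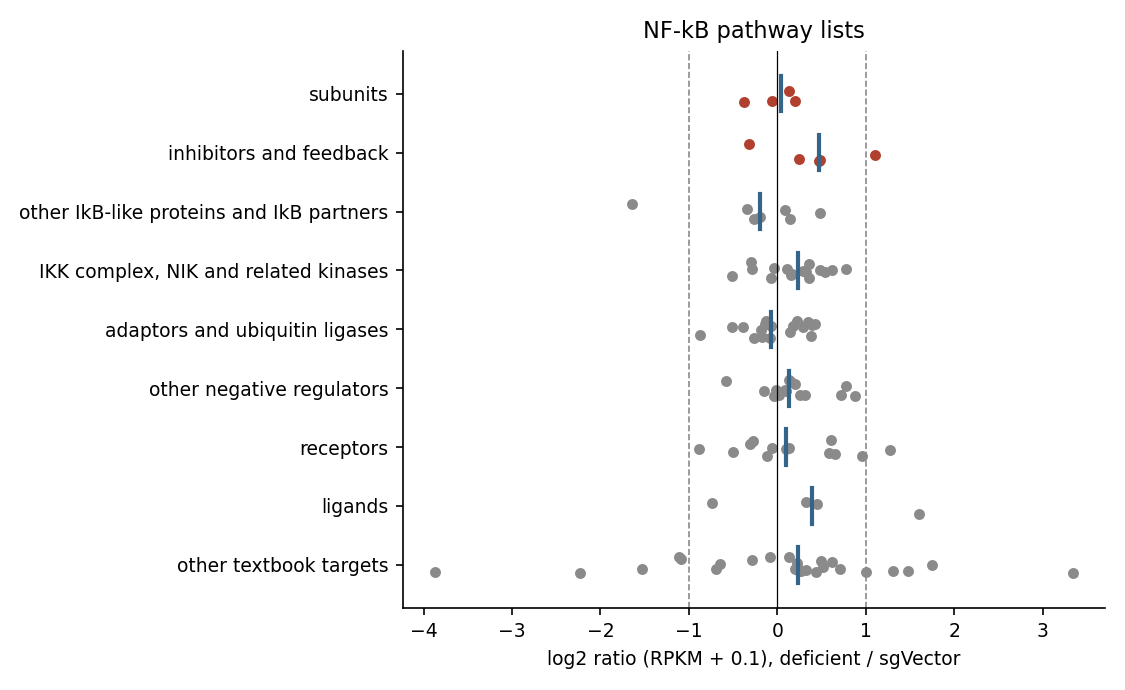
Log2 ratio of every gene past the minimum mean in the members (red) and in 7 lists of other NF-kB pathway genes (grey), with list medians as blue lines and 2-fold as dashed lines. The medians lie between -0.20 and 0.47, and the targets, the list with the most genes, spread the widest.

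The labels were checked against marker genes. CD274 and PDCD1LG2, which encode PD-L1 and PD-L2, had 47 against 477 and 46 against 204 reads, lower in the library labelled deficient. The 6 mesenchymal breast line markers all passed the minimum. VIM stood lower, at 390 against 746 RPKM (log2 ratio -0.94), and CD44 at -0.27. EGFR, AXL, ZEB1 and CDH2 stood at 0.01, -0.01, 0.03 and -0.05, with intervals that held equal shares. Of 5 luminal markers 3 passed the minimum. ERBB2 had 1690 against 1175 reads (mean 8.51 RPKM), FOXA1 and GATA3 lay just past the minimum with 71 against 86 and 48 against 77 reads, and ESR1 had 6 against 2 reads and PGR 0 in both. Leukocyte markers summed to 489 against 353 reads over 7 genes, of which CD14 gave 476 against 337. PTPRC, the pan-leukocyte gene, had 0 against 4 reads, and CD3E had 0 in both. The 3 endothelial markers that matched a row had 17 against 9 reads. The libraries held 16381546 and 16206675 reads on genes, and mitochondrial genes took 6.50% of these in deficient and 7.99% in sgVector cells.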

How the data were processed

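RNA from 1 PD-L1L2-SE deficient and 1 sgVector library of SUM-159 cells was measured. The authors deposited RPKM values for each gene beside its length and exon positions. The tools named are featureCounts 1.6.4 and Subread and the builds hg19 and GRCh37, per the submitters' processing notes. Aligner, annotation release and strand setting: not given in the sources used here. RPKM times length came in whole steps for 100% of values (within 1e-06 of a read), which gave reads per gene for the intervals. A value of 0 allows up to 3 reads. PCR reads are not independent molecules, so intervals cover counting error only.

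Symbols came from a gene name table and GENCODE release 29, which also gave gene type and GC content, known for 98.9% of genes past the minimum of 1 RPKM. The 41 pseudoautosomal rows on chromosome Y were left out. Per gene the log2 ratio of RPKM + 0.1 was computed. This scale understates the change of low genes. Named genes are the members, CD274 and PDCD1LG2, and the 3 highest and 3 lowest genes of each list. Named outside that rule, after their values were seen, were CHUK, IKBKG, MAP3K14, TNFRSF1A, IL1R1, BTRC, BIRC2, USP34, IL1RL1, CCL5 and CXCL8. Also named were the marker and unmeasured ligand genes, overlapping genes, and IFNGR1 and NHSL1 by the rule for neighbours of a changed member. The members and lists were chosen with earlier results of these data known.

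Alternatives were pseudocounts of 1 and 0.01, centring, TPM, trimmed mean of M values (30% of ratios and 5% of levels trimmed), upper-quartile scaling, removal of mitochondrial genes, lowess correction on GC content and length (share 0.3), a minimum of 5 RPKM or none, 1.5-fold, whole intervals past 2-fold, reads in place of RPKM and a 3 Mb window. The background of genes with at least 500 reads and the list without FBXW11 and BTRC were chosen after seeing the data. The log2 ratio and the counting interval were tested on simulated reads with known fold changes and counting error only. The other steps were not tested in this way. Promoter sequences are RefSeq's, build GRCh38.p14, and no coordinates were carried between builds. Software was Python 3.11.15 with matplotlib 3.10.9, statsmodels 0.14.6, scipy 1.17.1, pandas 2.3.3 and numpy 2.4.6.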

Additional observations from a re-analysis of the deposited data

How the results depend on the processing

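No paired analysis was possible because each group holds 1 library and the result comes from no test. The count of members past 2-fold, 1 higher and 0 lower, was the same under every alternative run for it. Of 80 values of single members under alternatives 64 stayed inside the counting interval and 16 did not, 8 of these with the GC and length correction. RELA alone changed sign. The median over the members went from 0.20 to 0.27 with trimmed mean of M values and 0.30 with the GC and length correction. The subunit median went from 0.04 to 0.14 with that correction and to 0.14 with no minimum level, since REL then enters. The feedback median went from 0.47 to 0.55 with trimmed mean of M values. A minimum of 5 RPKM moved the medians of IkB-like genes to 0.12, adaptors to 0.15 and receptors to -0.060 as fewer genes entered, the correction moved adaptors to 0.10, and no minimum moved ligands to 0.00. The cause was not tested for the scalings. Depth limits REL, TRAF1, CXCL1, CCL2, CSF2 and the ligand genes.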

Other observations

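The gene IL1RL1, which encodes the receptor for interleukin-33 and lies on the same strand as IL18R1 with an overlap in the annotation, had 86 reads in deficient cells and 4 in sgVector cells. It was chosen after its values were seen, and lies under the minimum mean of 1 RPKM. IL18R1 itself had 823 against 417 reads, and IL33, the ligand of IL1RL1, had 1 against 4 reads.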
